A study of Homo sapiens with 5 samples.

Results

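Replication origins are described that entered the wild-type RNA polymerase II (RNAPII) density profiles but have no entry in the deposited table of selected origins. Members were taken by identifier alone: an origin had to occur in the density profiles of all 3 wild-type samples and be missing from the selected table. Of 4784 origins, 2744 met this rule and are called left-out origins here, and the 2040 that the table holds are called listed origins and serve as the reference. Per its name, the table kept origins with an empty stretch of 5 kb upstream of a transcription start site (TSS). The identifier of a left-out origin gives only an approximate place in hg38, since for listed origins it lay a median of 1667 bp and at most 17250 bp from the tabled centre.

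The study mapped RNAPII by chromatin immunoprecipitation and sequencing (ChIP-seq) in RPE1, an hTERT-immortalised human retinal pigment epithelial cell line, to ask how transcription and replication lie relative to each other along the genome. All groups, the controls included, were untreated and carried an inducible Cas9 with a double knockout of p53 and puromycin resistance. The 3 wild-type (WT) samples are used here. The CFAP20-KO sample and the CFAP20/CCNC-dKO sample, 1 each, have no origin profile in the files used and were not analysed here. WT chromatin was crosslinked with disuccinimidyl glutarate and formaldehyde, 28 µg entered each pull-down together with 40 ng of Drosophila chromatin, and RPB1, the largest RNAPII subunit, was the target. The catalogue number that the labels give for the WT RPB1 antibody is also that of the spike-in antibody, and 1 of these entries may be a mistake. Nothing in the labels says that the 3 samples came from separate cultures, so p-values measure the spread between these samples, which may be technical.

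Human cells start DNA replication from broad initiation zones, and sequencing of Okazaki fragments (OK-seq) finds them from the strand on which the short lagging-strand fragments lie. Such zones often border active genes, so that the forks that leave them move along with the transcription of a neighbouring gene or meet it head-on. RNAPII is densest just downstream of active TSSs, where it pauses, is lower in gene bodies and often rises again past gene ends, where termination is slow.

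Each origin has 1 RNAPII density value per 200 bp over 100 kb on either side of its centre, and densities are in the deposited units, which differ in scale between samples. The quantities given throughout are the density within 5 kb of the centre, that of each side from 5 to 50 kb, and the local peak, the highest running mean over 2 kb within 50 kb of the centre. Each is set against the flanks, 75 to 100 kb away, of the same windows in the same sample. The positive side is the direction in which the columns run, which in 80.5% of the placed left-out origins was the direction of transcription of the gene with the nearest TSS, against 83.6% of listed origins. All densities were whole multiples of 1 step per sample, and the total over all windows came to 111908328, 35323306 and 18045697 steps in WT replicates 1, 2 and 3. A median left-out origin had 1044, 354 and 170 steps in its central bins, so replicate 3 is the least precise. Of 10 RPE1 marker genes, 5 had a TSS profile in replicate 1, and all 5 lay above the median of all TSSs, as did 1 of the 4 found among 10 genes of other cell types.

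By matching density patterns to TSS profiles and to neighbouring windows, 1859 of the 2744 left-out origins were placed on hg38 and 885 were not. On listed origins the same matching gave the tabled centre in 1266 of 1266 and 657 of 657 cases. Origins without a usable TSS profile or neighbouring window cannot be placed, so the placed origins lean towards genes. Listed origins found by the same search are given as a second reference for gene context, TSS sides and the features at local peaks. The comparisons by place of the centre, by BrU-seq value, of base composition and of promoter motifs set placed left-out origins against all listed ones.

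Sequences are shown for the promoters that lay at a named centre or local peak, and for the centres of an origin of high and an origin of low RNAPII that turn up again below. The promoters run from 250 bases before to 50 after the RefSeq start in GRCh38.p14 and are written along the gene's own strand, with every match on either strand to the motifs TATAAA (the core of the TATA box), CCAAT (the CCAAT box) and GGGCGG (the core of the GC box) in capitals. They are those of H2AC20 (chr1:149886668-149886967, plus strand), VIM (chr10:17227991-17228290, plus strand), CHMP2A (chr19:58555056-58555355, minus strand) and NBPF1 (chr1:16613515-16613814, minus strand).
H2AC20: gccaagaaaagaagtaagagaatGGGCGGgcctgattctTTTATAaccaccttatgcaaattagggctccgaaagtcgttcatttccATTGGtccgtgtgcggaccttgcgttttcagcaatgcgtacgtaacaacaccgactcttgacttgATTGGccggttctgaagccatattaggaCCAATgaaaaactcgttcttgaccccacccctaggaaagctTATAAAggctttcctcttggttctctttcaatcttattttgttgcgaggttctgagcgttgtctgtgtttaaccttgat
VIM: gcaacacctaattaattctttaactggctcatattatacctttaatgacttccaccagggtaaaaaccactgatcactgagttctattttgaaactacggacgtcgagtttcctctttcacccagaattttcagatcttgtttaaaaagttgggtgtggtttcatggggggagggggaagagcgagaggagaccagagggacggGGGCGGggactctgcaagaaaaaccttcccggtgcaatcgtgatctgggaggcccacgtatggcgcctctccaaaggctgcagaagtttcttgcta
CHMP2A: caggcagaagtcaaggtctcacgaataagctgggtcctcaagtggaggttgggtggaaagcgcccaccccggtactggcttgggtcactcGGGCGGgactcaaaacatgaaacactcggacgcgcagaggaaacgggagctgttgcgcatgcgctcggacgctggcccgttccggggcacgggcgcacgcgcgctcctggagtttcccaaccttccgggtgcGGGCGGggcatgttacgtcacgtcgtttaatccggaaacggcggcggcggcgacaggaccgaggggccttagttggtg
NBPF1: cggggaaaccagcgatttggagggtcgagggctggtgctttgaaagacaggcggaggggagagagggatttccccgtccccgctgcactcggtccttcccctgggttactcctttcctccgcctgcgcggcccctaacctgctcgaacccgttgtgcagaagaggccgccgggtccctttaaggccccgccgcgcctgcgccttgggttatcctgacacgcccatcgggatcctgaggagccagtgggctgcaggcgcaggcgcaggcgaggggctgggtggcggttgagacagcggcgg
The H2AC20 promoter held 2 matches to TATAAA, 3 to CCAAT and 1 to GGGCGG. The VIM promoter held 1 match to GGGCGG, the CHMP2A promoter 2, and the NBPF1 promoter none of the 3 motifs.

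The 2 centres are 300 bases of the hg38 plus strand with CG dinucleotides in capitals. The first lies in an intron of CCDC106 (chr19:55641851-55642150), and the second outside genes, 11 kb upstream of PRKCD (chr3:53144851-53145150).
CCDC106 origin: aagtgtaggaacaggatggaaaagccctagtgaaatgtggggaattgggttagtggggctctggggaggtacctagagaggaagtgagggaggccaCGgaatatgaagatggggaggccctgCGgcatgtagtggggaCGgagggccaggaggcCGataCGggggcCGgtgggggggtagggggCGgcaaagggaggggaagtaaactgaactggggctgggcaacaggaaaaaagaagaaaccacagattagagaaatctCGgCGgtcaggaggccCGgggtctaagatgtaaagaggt
PRKCD origin: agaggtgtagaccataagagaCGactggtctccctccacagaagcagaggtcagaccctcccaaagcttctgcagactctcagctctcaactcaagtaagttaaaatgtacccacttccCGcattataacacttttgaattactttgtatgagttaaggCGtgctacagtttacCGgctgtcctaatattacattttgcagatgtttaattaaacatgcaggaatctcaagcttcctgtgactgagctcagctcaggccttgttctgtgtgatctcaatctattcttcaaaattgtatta
The CCDC106 centre, where RNAPII was high, held 10 CG dinucleotides and 57.7% G+C. The PRKCD centre, where RNAPII was low, held 4 and 42.0%. Other named centres, described below, did not follow this order. The VIM and NBPF1 centres, both of high RNAPII, held 4 and 3 CG dinucleotides and 36.7% and 37.3% G+C. The KATNAL2 centre, among the lowest but mostly without signal, held 10 and 56.7%.

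RNAPII density at the centres of left-out origins was close to that of their own flanks. The mean over origins was 1.026, 1.035 and 1.069 times the flank density in WT replicates 1, 2 and 3 (1.043 ± 0.0226, SD, n = 3), against 0.986, 1.012 and 1.004 for listed origins (1.001 ± 0.0134). The left-out centres were thus higher than their flanks in every sample, and higher than the listed centres in every sample. The log2 difference between the classes was 0.057, 0.032 and 0.091, a mean of 0.060, for which the exact sign-flip permutation test, two-sided, gave p = 0.25. With 3 samples this test cannot give a smaller p, and it gave 0.25 for every difference below that had the same sign in all 3 samples.

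Much of the excess over the flanks came from few origins. The median origin had a log2 centre to flank ratio of −0.027, −0.0027 and 0.0050 in the 3 replicates, so its sign was not the same in all of them. Without the 1% of origins with the highest centres, the log2 ratio of the means went from 0.061 to 0.022. Among origins with no other origin within 200 kb it was 0.107. The median of listed origins was lower in every sample, at −0.062, −0.021 and −0.046, a difference of 0.035 between the class medians (0.035, 0.018 and 0.051).

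Away from the centre the left-out profile rose on both sides. The mean over samples was 1.029 times the flank within 1 kb of the centre, 1.090 at 5 to 10 kb on the positive side and 1.078 at the same distance on the negative side. It was still 1.086 at 10 to 25 kb on either side and had come down to 1.037 and 1.019 at 50 to 75 kb on the positive and negative side. Listed origins followed another course: 0.978 within 1 kb of the centre, 1.127 and 0.991 at 5 to 10 kb on the positive and negative side, and 1.130 and 1.022 at 10 to 25 kb. The left-out profile was thus a shallow dip between similar shoulders. The listed profile rose from the negative to the positive side, but it dipped as well, to 0.965 at 1 to 5 kb on the negative side. The ratio of the centre to the mean of both sides was 0.980 in left-out and 0.945 in listed origins. A dip was thus not particular to left-out origins. A sharp maximum of the left-out profile at 16 to 18 kb on the negative side came in part from 1 origin on chromosome 17, whose density there was 72.6, 23.3 and 49.1. With it the mean was 1.133, 1.077 and 1.162 times the flank, and without it 1.108, 1.064 and 1.138.

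**Figure D1:**
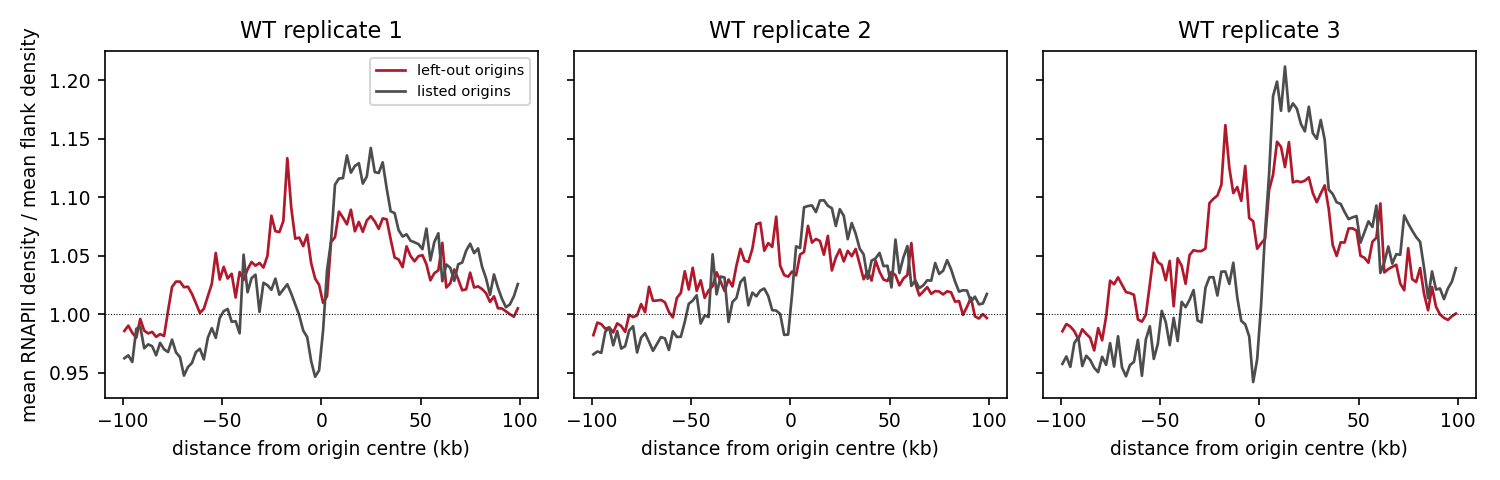
Mean RNAPII density relative to the flanks (75 to 100 kb) against distance from the origin centre in kb, for left-out and listed origins, with 1 line per WT replicate. Left-out origins have shoulders of similar height on both sides (1.090 and 1.078 times the flank at 5 to 10 kb), while listed origins are higher on the positive side (1.127 against 0.991).

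Both sides of left-out origins held more RNAPII than the flanks, and by similar amounts. The positive side was 1.068, 1.048 and 1.101 times the flank (1.072 ± 0.0264, SD, n = 3) and the negative side 1.056, 1.043 and 1.075 times (1.058 ± 0.0161). In listed origins the positive side was 1.106 and the negative side 1.012 times the flank. The log2 ratio of positive to negative side was 0.017, 0.0072 and 0.034 in left-out origins and 0.125, 0.078 and 0.179 in listed origins. The difference of −0.108 ± 0.037 (SD, n = 3) had the same sign in all samples, and p = 0.25 by the exact sign-flip permutation test. It was −0.067 among origins with no other origin within 200 kb. The small left-out side ratio itself moved with the settings: its mean of 0.019 became 0.0034 with sides of 5 to 25 kb, 0.012 without replicate 3, 0.034 among isolated origins and 0.041 without the 1% of origins with the densest sides.

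Single origins differed from each other far more than the classes did. The SD of the log2 centre to flank ratio between left-out origins was 0.466, with 10% of origins below −0.46 and 10% above 0.53, while the median SD between samples for the same origin was 0.178. For the side ratio these values were 0.526 between origins and 0.132 between samples. The centre ratio had the same sign in all 3 samples in 1789 left-out origins (65.3%), and the side ratio in 2143 (78.2%). Windows are not independent: 1408 of the 2744 left-out origins (51.3%) had another origin within 200 kb and so shared bins with it.

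**Figure D2:**
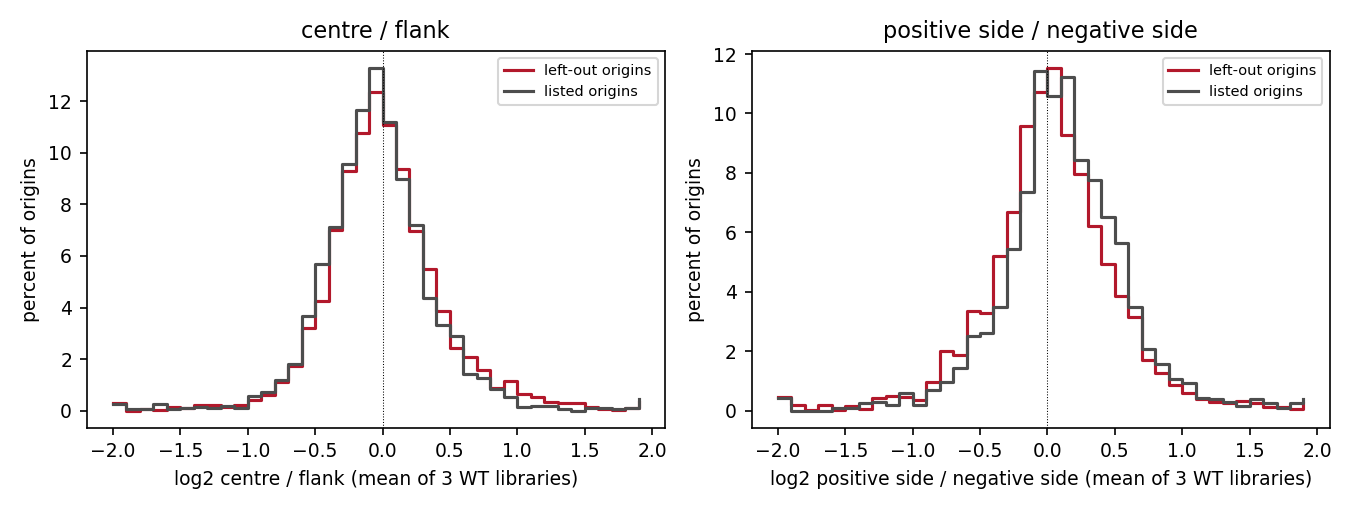
Histograms of the mean log2 centre to flank ratio (left) and the mean log2 positive to negative side ratio (right) per origin, as a percent of origins in each class, over the 3 WT replicates. The outermost bins hold all values beyond them. The centre distributions of the 2 classes lie almost on each other, and that of the side ratio is shifted towards the positive side in listed origins.

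A limma test was run on each of the 4779 origins that passed a filter on flank density, 2740 of them left-out. The 4 left-out origins that failed it lay on chromosomes 9, 19 and Y. The centre was called above the flank, at a Benjamini-Hochberg adjusted p under 0.05, in 488 left-out origins (17.8%), and 16.3% of all origins tested were so called. It was called below the flank in 463 (16.9%), against 17.6% of all tested. Both shares were near the background. In listed origins the centre was above in 292 (14.3%) and below in 377 (18.5%). The positive side was called above the negative in 822 left-out origins (30.0%), beside 32.7% of all tested, and the negative side above the positive in 655 (23.9%), beside 21% of all tested. In listed origins these counts were 743 (36.4%) and 348 (17.1%). Without replicate 1, the deepest sample, 324 centre calls remained in number instead of 951, of which 64.8% were above the flank instead of 51.3%, and 931 side calls instead of 1477.

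Left-out origins lay inside genes more often than listed ones. By the position in the identifier, 1035 of 2744 (37.7%; 95% exact binomial interval 35.9% to 39.6%) were inside a protein-coding gene of GENCODE 44, against 376 of 2040 listed origins (18.4%; 16.8% to 20.2%). Among placed origins it was 789 of 1859 (42.4%; 40.2% to 44.7%), against 19.5% of the listed origins that the same search found. These intervals cover the counting of origins only. Listed origins were, per the name of their table, selected for an empty stretch upstream of a TSS. The classes may differ in the share inside genes by that choice, which was not tested. A placed left-out origin had a median distance of 12176 bp to the nearest protein-coding TSS, against 16008.5 bp for listed origins and 14190.5 bp for those found by the same search. Over all origins, by the position in the identifier, the median was 14880 bp in left-out and 14601.5 bp in listed origins. By that position 28.1% of left-out and 24.4% of listed origins lay over 50 kb from a TSS. The shorter distance was thus seen in placed origins only, which lean towards genes. Another gene lay within 5 kb upstream of the nearest TSS in 25.3% of placed left-out origins and in 12.1% of listed ones. The listed class was therefore not free of such genes in this annotation, but held fewer. Left-out origins made up between 44.9% (chromosome 13) and 69.5% (chromosome 19) of the origins on each autosome and X.

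RNAPII at the centre of placed origins differed with where in or outside a gene the centre lay. The search favours origins near TSSs with RNAPII, since 1577 of the 1859 were placed by matching their density to TSS profiles. Origins not placed are absent from this comparison. In the 561 placed left-out origins inside a gene and within 20 kb of a TSS, the centre was 1.127, 1.102 and 1.194 times the flank (1.141 ± 0.0478, SD, n = 3). In the 566 that lay outside genes, within 20 kb upstream of a TSS, it was 1.008 ± 0.0117 times the flank. The log2 difference of these 2 places was 0.176, 0.132 and 0.227 (mean 0.178). The 228 origins inside a gene but farther from a TSS were at 0.986 ± 0.0205, and the other 503 outside genes at 0.996. Of these 4 places, only the first had a centre above the flank by more than the SD between samples. The calls above the flank followed the same order, beside 16.3% of all origins tested: the centre was above the flank in 163 of the 561 origins (29.1%) inside a gene near a TSS, in 96 (17%) upstream of one, in 63 (12.5%) elsewhere outside genes and in 26 (11.4%) deep inside a gene. The calls below the flank did not follow it, at 18.4%, 21.0%, 17.7% and 18.9% in the same places, beside 17.6% of all tested.

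Within the same place, placed left-out origins differed from listed ones in 3 of the 4 places, and not in the same direction. All listed origins were taken, whether or not the search found them, so the sets were not chosen alike. Inside a gene near a TSS, listed centres (n = 214) were at 1.069, 1.053 and 1.117 times the flank, lower than left-out centres in each sample. The log2 difference was 0.079 (0.075, 0.065 and 0.096). It was 0.030 with a centre of 2 kb on either side and 0.131 among isolated origins. Deep inside genes the order was the other way, with listed centres (n = 164) at 1.034. Upstream of a TSS listed centres (n = 939) were at 0.974. Elsewhere outside genes (n = 722) the log2 difference, left-out minus listed, was −0.033, −0.035 and 0.023, with no common sign.

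The transcription of the host gene went with the density at the centre. The authors' deposited table gives a gene body value of BrU-seq, which labels new RNA with bromouridine, and its median over genes was 0.588. In the 121 placed left-out origins whose host gene lay above that median, the centre was 1.284, 1.201 and 1.427 times the flank (1.304 ± 0.114, SD, n = 3). In the 124 whose host gene lay at or below it, the centre was 0.926, 0.971 and 0.930 times the flank (0.942 ± 0.0247). The log2 difference was 0.472, 0.308 and 0.618 (0.466 ± 0.155), and p = 0.25 by the exact sign-flip permutation test. The same split of all listed origins, found by the search or not, gave 1.274 (n = 73) and 0.972 (n = 71). In 21 more placed left-out origins the host gene was in the table without a BrU-seq value. Their centre was 0.772, 0.850 and 0.664 times the flank. The BrU-seq value has no replicates here, and the table covers the host genes of only part of the 789 placed left-out origins inside genes.

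**Figure D3:**
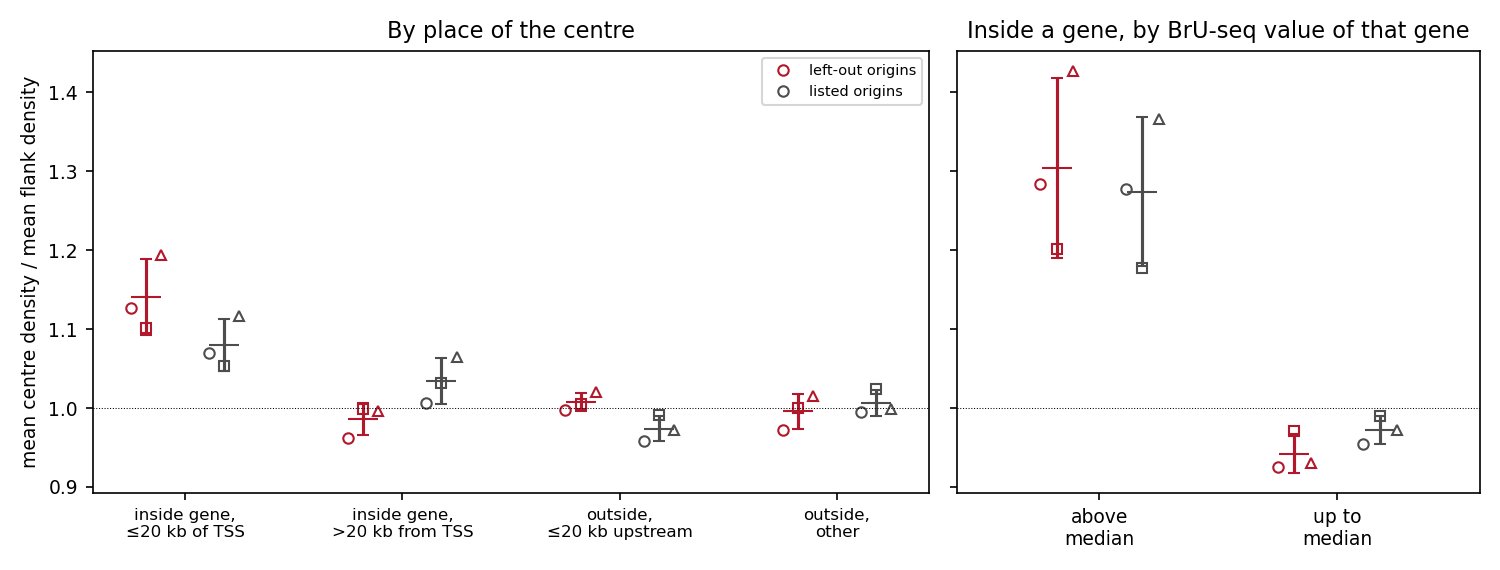
Centre density over flank density by the place of the centre, for placed left-out and all listed origins (left), and by the BrU-seq value of the host gene (right). Each symbol is a WT replicate and the bars are the mean ± SD. Left-out origins inside a gene within 20 kb of a TSS stand above the other places (1.141 against 0.986 to 1.008), and host genes above the BrU-seq median stand above the others (1.304 against 0.942).

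Base composition differed with these groups as well. The median G+C content within 5 kb of the centre was 43.7% in the 1858 placed left-out origins and 42.5% in the 2039 listed ones. Their flanks had 42.1% and 40.9%. Placed origins lean towards genes, and no G+C value was taken for listed origins found by the same search. It was 45.8% in placed left-out origins inside a gene near a TSS. Placed left-out origins whose centre was called above the flank (n = 348) had a median of 45.9%. Those called below it (n = 354) had 44.8% and those not called (n = 1156) 42.8%. The ratio of observed to expected CpG, which is high at CpG-island promoters, was 0.345, 0.249 and 0.227 in these 3 groups. The part of base composition in the density differences was not tested.

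The even sides of left-out origins went with the placement of TSSs around them. TSSs of protein-coding genes lay 5 to 50 kb away on the positive side only in 419 placed left-out origins (22.6%), on the negative side only in 413 (22.2%), on both sides in 500 (26.9%) and on neither in 526 (28.3%). Listed origins had them on the positive side only in 34.3%, on the negative side only in 16.7%, on both in 15.8% and on neither in 33.2%. In the listed origins found by the same search these shares were 34.7%, 19.3%, 18.5% and 27.5%, and the left-out share with TSSs on neither side was then not the lower one. The mean number of TSSs was 0.695 on the positive and 0.781 on the negative side of left-out origins, against 0.597 and 0.442 in listed origins and 0.641 and 0.511 in those found by the same search. Left-out origins thus had genes on both sides more often, and their negative side held more TSSs than the positive. The table was, per its name, selected for an empty stretch upstream of a TSS, so the classes may differ in this by that choice. This was not tested.

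RNAPII was higher on the side with TSSs in both classes. With TSSs on the positive side only, the log2 side ratio of left-out origins was 0.286, 0.189 and 0.383. With TSSs on the negative side only it was −0.198, −0.116 and −0.247. With TSSs on both sides it was 0.020 and with none −0.044. The listed values in the same order were 0.384, −0.126, 0.055 and 0.015. In each of these 4 settings the left-out ratio was below the listed one in all 3 samples, with mean differences of −0.098, −0.061, −0.035 and −0.059. Against the listed origins found by the same search the differences were −0.125, −0.081, −0.032 and −0.100. The difference with TSSs on both sides turned to 0.053 among isolated origins, and that with TSSs on neither side was −0.037 without replicate 3 and −0.098 with a stricter density filter.

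The gap also varied with the place of the centre. Outside genes and within 20 kb upstream of a TSS, the log2 side ratio of placed left-out origins was 0.062, 0.030 and 0.095. That of all listed origins in this place was 0.238, 0.160 and 0.314. The difference of −0.175 (−0.176, −0.130 and −0.219) was larger in size than its spread between samples. Deep inside genes, over 20 kb from a TSS, it was −0.174 (−0.172, −0.100 and −0.250), inside genes nearer to a TSS −0.065, and elsewhere outside genes −0.020. The order was another for the median origin. The class medians of the log2 side ratio differed by −0.112 upstream of a TSS and by −0.064 (−0.049, −0.0059 and −0.137) deep inside genes. Inside genes nearer to a TSS they differed by −0.102, and elsewhere outside genes by −0.026. In the upstream origins the negative side stood at 1.076 times the flank in left-out and 0.981 times in listed origins.

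**Figure D4:**
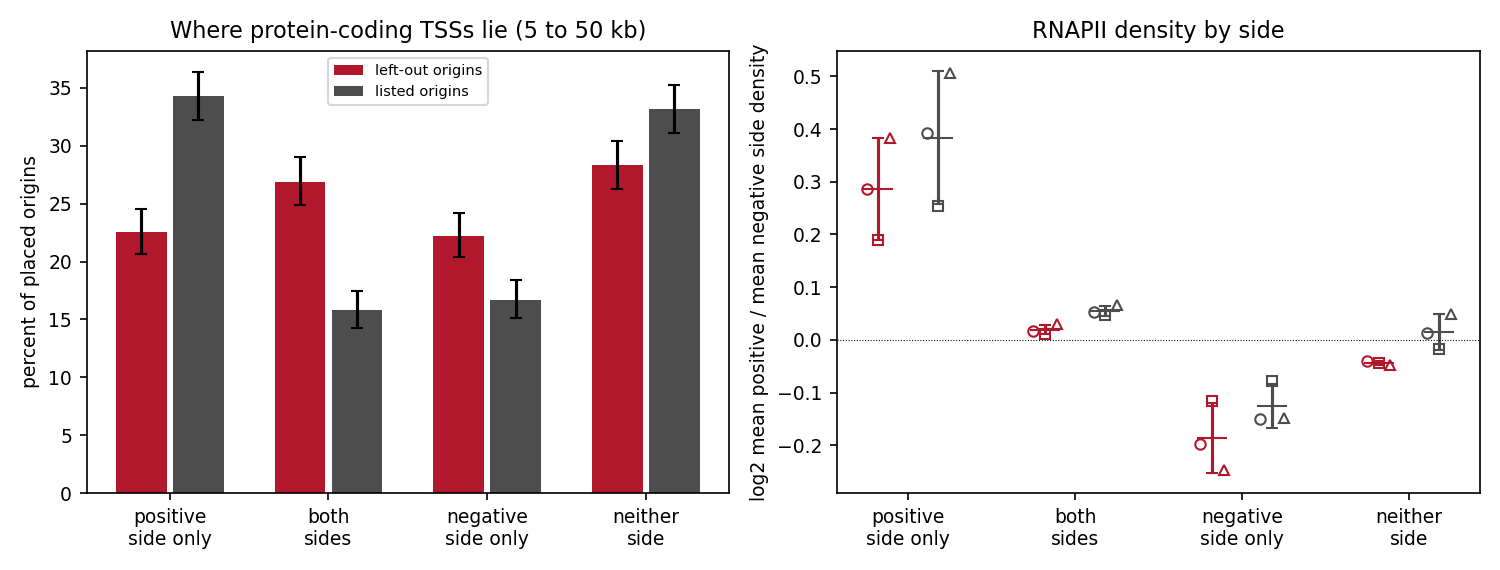
Left, percent of placed left-out and of listed origins by where protein-coding TSSs lie 5 to 50 kb from the centre, with 95% exact binomial intervals. Right, log2 ratio of positive to negative side density in the same groups, 1 symbol per WT replicate with the mean ± SD. Left-out origins have TSSs on both sides more often (26.9% against 15.8%), and with TSSs on the positive side only their ratio is lower (0.286 against 0.384).

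Local peaks stood above the flanks to a similar degree in both classes. The median log2 ratio of local peak to flank was 1.236, 0.977 and 1.544 in left-out origins and 1.279, 0.997 and 1.584 in listed ones. The small difference of −0.034 ± 0.012 changed sign under 3 other settings, among them the limit to placed origins, where it was 0.0053. Within each place of the centre, the median of placed left-out origins was above that of all listed ones in every sample. The mean difference was 0.092 inside a gene near a TSS, 0.075 deep inside genes, 0.046 upstream of a TSS and 0.148 elsewhere outside genes. These sets were not chosen alike. The peak was at least 2-fold above the flank in every sample in 1257 left-out origins (45.9%) and in 47.2% of listed ones. As the highest of many positions, a local peak lies above the flank also where density only fluctuates. The classes differed in the side of the peak: it was on the positive side in 53.0% of left-out and 63.7% of listed origins. Its median distance from the centre was 16.0 kb in left-out and 15.4 kb in listed origins, and it lay within 5 kb of the centre in 16.1% and 13.3%.

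The local peaks of placed left-out origins lay mostly at gene starts. In 935 (50.3%) a protein-coding TSS was within 1 kb of the peak, in 123 (6.62%) the start of another gene, and in 132 (7.10%) a gene end within 2 kb. Another 357 peaks (19.2%) lay elsewhere inside genes and 311 (16.7%) elsewhere outside. The search favours such peaks, since 1577 of the 1859 origins were placed by matching their density to TSS profiles. Origins not placed had lower peaks, with a median log2 ratio of 1.01 against 1.35. Among the listed origins found by the same search, 50.3% of peaks were at a protein-coding TSS, 5.49% at a gene end and 19.7% elsewhere outside genes. These shares were close to those of left-out origins but passed the same search. Over all listed origins, 47.7% of peaks were at a protein-coding TSS. The height went with the feature: the median log2 peak to flank ratio was 1.53 ± 0.34 (SD, n = 3) at protein-coding TSSs, 1.66 ± 0.30 at other gene starts, 1.35 ± 0.20 at gene ends and 0.68 ± 0.19 outside genes.

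**Figure D5:**
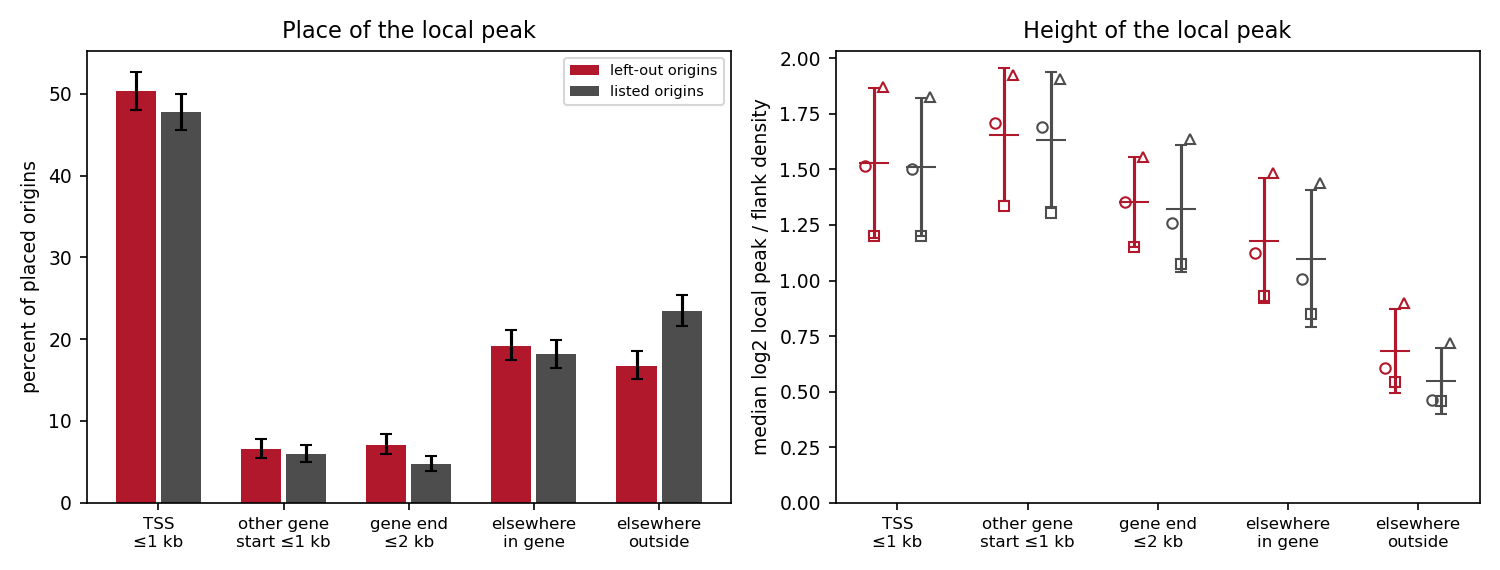
Left, percent of placed left-out and of listed origins by the annotated feature at their local peak. Right, median log2 ratio of local peak to flank density for each feature, 1 symbol per WT replicate with the mean ± SD. Peaks at protein-coding TSSs are the most frequent (50.3% of placed left-out origins) and stand higher than peaks outside genes (1.53 against 0.68).

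The promoters at these peaks had a higher median G+C content than all promoters in the table, in both classes. Of the 1185 RefSeq promoters with a start within 1 kb of the local peak of a left-out origin, 73.8% held GGGCGG against 44.6% of all 27305 promoters in the table. TATAAA was found in 5.57% against 12%, and CCAAT in 29.9% against 35.7%. Their median G+C content was 67.3%, against 58.3% for all promoters. The 1171 promoters at peaks of listed origins gave 75.1%, 4.95% and 30.3%, with 68.0% G+C. Each motif was searched on both strands of the 300 bases, separately and regardless of overlap, and a match is a string of letters and not a bound site.

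Origins that were not placed are described by the approximate position in their identifier. The highest centre was of this kind, near the start of AMPD3, which encodes an AMP deaminase. By its identifier this origin lies in an intron on chromosome 11, 3.94 kb into the gene. Its centre density was 7.73, 4.07 and 8.12 in the 3 replicates and its flank density 0.875, 0.570 and 0.575. The centre stood far above the flank in every sample, with a log2 ratio of 3.13 (SE 0.16, limma, adjusted p = 1.19e-06).

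The origin at VIM, the gene of the intermediate filament vimentin and 1 of the RPE1 markers, was placed at chromosome 10, position 17227501, 0.74 kb upstream of the TSS. Its centre density was 4.69, 2.46 and 4.94 and its flank density 0.597, 0.408 and 0.354, a log2 ratio of 2.93 (SE 0.18, limma, adjusted p = 4.03e-06). The printed VIM promoter therefore falls inside the centre. The local peak was not there but 11.2 kb away, 1.1 kb beyond the end of VIM, where the density was 18.2, 5.87 and 17.3. That is the fourth highest local peak among left-out origins, 24.0-fold above the flank on average, and it lay past the gene end rather than at the start. The columns of this window run against the direction of VIM, so its gene body lies on the negative side.

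In the CCDC106 origin shown above (chromosome 19, position 55642001, 0.939 kb into the gene of a coiled-coil protein), the centre density was 5.35, 2.54 and 4.66 and the flank density 0.793, 0.580 and 0.520. The log2 ratio was 2.55 (SE 0.16, limma, adjusted p = 4.82e-06). Its sides were even, at 1.84, 0.931 and 1.46 on the positive and 1.98, 1.08 and 1.43 on the negative side (adjusted p = 0.386). The origin 1.44 kb upstream of NBPF1 had a log2 centre to flank ratio of 2.89 (SE 0.11, limma, adjusted p = 2.20e-07), with its local peak 0.361 kb from the NBPF1 TSS. NBPF1 has near-identical relatives and 16.3% of the bins of this window were at 0 in all samples, so its density is uncertain.

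Of the 5 lowest centres, 4 lay over sequence with no signal. They lay near SPATA31D4 on chromosome 9, in an intron of KATNAL2 on chromosome 18 and near the complement gene C4B on chromosome 6. Another on chromosome 9 lay outside genes, 284 kb from the nearest protein-coding TSS, that of CNTNAP3B. Between 54.9% and 84.3% of their central bins were at 0 in all 3 samples. SPATA31D4 and C4B have close copies, so reads may not map uniquely near them. No fold is given for any of the 4. The fifth is the PRKCD origin shown above, with no bin at 0. PRKCD encodes protein kinase C delta. Its centre density was 0.647, 0.428 and 0.414 and its flank density 3.21, 1.48 and 2.37, a log2 ratio of −2.05 (SE 0.14, limma, adjusted p = 5.80e-06). In this origin the flanks were high and the sides low: 1.07, 0.655 and 0.641 on the positive and 1.06, 0.638 and 0.749 on the negative side.

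The largest side differences were of the same kind. In 4 of the 5 origins named for them, between 27.9% and 46.3% of the window's bins were at 0 in all samples, and the lower side was at or near 0. At the origin 20.9 kb upstream of MZF1 on chromosome 19, which lies near the chromosome end, the positive side had 0.063, 0.039 and 0.035 and the negative side 2.68, 1.21 and 2.16. In this window 44.7% of bins were at 0 in all samples, and the positive side runs towards that end. Its low value may thus come from bins without sequence and is no measure of RNAPII. The peak of the denser side was at CHMP2A, which encodes a subunit of the membrane-remodelling ESCRT-III complex, 0.404 kb from the TSS. The promoter of CHMP2A is printed above. In the origin in an intron of CROCC, the gene of rootletin, the positive side was at 0.0051, 0.0069 and 0.0080 and the negative side at 2.14, 1.19 and 1.66. Its local peak of 16.8, 7.77 and 14.3 lay 0.721 kb from the start of RNU1-2, 1 of several near-identical genes of the U1 small nuclear RNA, so its share of reads is uncertain. The other two lay in introns of HSF2BP and KCNE1 on chromosome 21. Of all 17 named origins, 10 had at least 5% of their bins at 0, against 2.48% of left-out origins overall.

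The fifth origin with a large side difference, on chromosome 4, also had the highest local peak. By its identifier it lies 170 kb from the nearest protein-coding TSS, that of CWH43. Its negative side was at 13.1, 9.07 and 5.68 and its positive side at 0.344, 0.307 and 0.206. The local peak reached 72.2, 68.1 and 52.6, which is 110-fold above the flank (log2 6.78 ± 0.18, SD, n = 3). The peak of replicate 2 was near that of replicate 1. At the chromosome 17, VIM and CCN1 origins it was far lower (23.2 against 69.9, 5.87 against 18.2 and 11.2 against 27.6). At the origin near SV2A it was 12.4 against 17.7. Of the bins of the chromosome 4 window 0.599% were at 0, which does not show that reads map uniquely there. Whether its peak is RNAPII signal was not tested. This origin could not be placed, so no feature can be named at the peak.

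The other high local peaks lay, where they could be placed, at known genes. At the chromosome 17 origin near TUBD1, which was not placed, the peak was 69.9, 23.2 and 47.8 over flanks of 1.39, 0.818 and 1.07, while its centre of 1.1, 0.524 and 0.938 was below the flank (limma, adjusted p = 0.0398). At the origin 1.66 kb upstream of SV2A, the gene of a synaptic vesicle glycoprotein, the peak of 17.7, 12.4 and 17.3 lay 32.6 kb away and 0.017 kb from the TSS of H2AC20, a histone H2A gene whose promoter is the first printed above. Histone genes have near-identical copies, and 17.5% of the bins of this window were at 0. At the origin 24.7 kb from the TSS of CCN1, which encodes a secreted matrix-associated protein and stands under its older name CYR61 among the RPE1 markers, the peak of 27.6, 11.2 and 21.8 lay 0.94 kb from the TSS. The flanks of this window were at 1.05, 0.620 and 0.768, and its negative side, which holds CCN1, was denser than its positive side in every sample, with a log2 side ratio of −1.67 (SE 0.12, limma, adjusted p = 7.31e-05).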

How the data were processed

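RNAPII ChIP-seq density around origins was used from 3 WT samples. The submitters' processing notes name BWA 0.7.17, STAR 2.7.7a, HOMER 4.8.2 and SAMtools 1.11, besides Trim Galore 0.6.5, R 4.0.5 and FastQC 0.11.9, and give GRCh38/hg38 as the build and BDGP6 for the Drosophila spike-in. The tool behind each file and the normalization of the origin profiles are not given in the sources used here. The authors deposited the origin profiles as a coverage signal in 200-bp bins, and because their scale differs between samples, ratios within a sample were taken. The BrU-seq signal is a value of the authors' deposited table with no replicates. Per-sample values in 2 more columns stayed unused. The TSS profile of WT replicate 1, used to place origins, is a coverage signal that the authors normalized to the spike-in, as its deposited name says.

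Steps were read from the spacing of each sample's values. Ratios of means were taken over origins with a mean relative flank density of at least 0.1, and log2 ratios of single origins with a pseudocount of 10% of the sample's median flank density were tested with limma 3.58.1 (R 4.3.3), with Benjamini-Hochberg adjustment over all 4779 origins. Single values over the 3 samples were tested with an exact two-sided sign-flip permutation test. Of these steps, only the limma test of centre against flank was run on simulated data. It recovered 73% of 100 origins shifted by a log2 ratio of 1 and 30% of 100 shifted by 0.5, with 2 false calls. Shifts of 0.5 were thus mostly missed there. Origins were placed by matching their bins to TSS profiles or to neighbouring windows within 20 kb of the identifier's position, and genes came from GENCODE 44. Python 3.11.15, NumPy 2.4.6, SciPy 1.17.1, pandas 2.3.3 and Matplotlib 3.10.9 were used. Named origins are the 5 with the highest and the 5 with the lowest centre ratio and the 5 with the largest side ratio, among those passing the test with the same sign in all samples, and the 5 with the highest local peak; genes at their local peaks were named after their values were seen. The RefSeq start of CCN1 was not matched. Members and lists were chosen with earlier results of these data known.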

Additional observations from a re-analysis of the deposited data

How the results depend on the processing

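The alternatives changed the width of centre, sides and flanks, the filter, the pseudocount, the running mean, the origins kept or the samples, 1 at a time. Those that drop origins with 5% or more of their bins at 0, origins with neighbours or origins not placed were chosen after seeing the data, as was every setting for the results by gene context, BrU-seq class and TSS side. Of the alternatives run on the main results, 163 kept direction and call, 9 changed sign and 3 moved a count or share. Leaving out each sample in turn gave 324 to 1051 centre calls and 931 to 1580 side calls, the lowest without replicate 1, and the median log2 centre ratio ranged from −0.015 to 0.0013. That median was also above 0 with a centre of 10 kb on either side (0.045) and among isolated origins (0.0085). The difference in local peak between the classes was 0.0046 with a running mean of 5 kb, 0.0070 among isolated origins and 0.0053 among placed origins. Deep inside genes the log2 centre ratio was 0.0027 with the 10 kb centre and 0.028 among isolated origins, and with TSSs on both sides the side difference was 0.053 among isolated origins. The cause was not tested. The share inside genes was 42.4% over placed origins. A centre of 2 kb and of 10 kb put 49.1% and 58.2% of centre calls above the flank, instead of 51.3%. Of 219 settings run on the 20 values of named origins, 210 left the value within its spread or on its side of the threshold, 9 moved it and none reversed it. All ratios and class differences were taken within a sample. No paired analysis was possible because replicate numbers could pair samples only across genotypes, and only WT samples were used. Depth limits the centre of single origins in replicate 3 most, and interval statements on shares cover counting only.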
